A study of Mus musculus with 212 samples.

Results

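Kit, the receptor tyrosine kinase that binds stem cell factor, was read with 2 of the 42 TaqMan assays of a single-cell quantitative PCR panel covering 33 genes. The members are the panel's rows Kit-1 and Kit-2, chosen by name in all 7 deposited tables and not by their values. The tables hold 200 single mouse cells, of which 8 repeat a cell of another table. The deposited value is the PCR cycle at which an assay crossed threshold (Ct), with 25 entered where it gave no signal. Expression is therefore written as 25 minus Ct and called cycles. It is 0 where Kit was not detected, and each further cycle stands for a doubling of template in a fully efficient PCR.

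Kit spans the cell membrane, dimerises when its ligand Kitl binds, and signals through its intracellular kinase. In the mouse it is best known on blood progenitors, mast cells, melanoblasts and germ cells, and it is also carried by embryonic endothelium and by pluripotent cells. In the heart it is used as a surface marker for sorting candidate progenitor cells, and how far it marks myocytes or endothelium has been debated. Its gene belongs to the same structural class as Pdgfra, and in the RefSeq annotation of GRCm38.p6 it lies on mouse chromosome 5 directly between Pdgfra and Kdr, the gene measured by the assay Flk-1. Both neighbours are receptor tyrosine kinases on the panel. Of 7 listed pathway genes (Kitl, Grb2, Stat5a, Pik3r1, Src, Sh2b3 and Cbl) and 7 listed markers of other Kit-bearing cells (Ptprc, Runx1, Gata1, Cpa3, Mitf, Dct and Ddx4), 0 have an assay on the panel, so neither the ligand nor a blood, mast, pigment or germ cell could be read.

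The 30 reference cells bear 6 names with 5 cells each (CPC, CM, SMC, FB, EDC and ES), from embryoid bodies and embryos according to the labels. The D5-D8 table holds 24 cells, 6 for each of D5, D6, D7 and D8, and the D23-D29 table holds 20, 10 for each day. There are 24 cells, 6 at each of 4 stages, in the table named E7.5-E10.5, and 72 more in the one named E10.5. An atrial and a ventricular table hold 15 cells each, 5 neonatal and 10 adult. No genotype, strain, ES line, treatment, sort marker, animal or culture is given in the labels, and the control columns are a negative and a positive control in each of 6 tables. Titles of the D5-D8, E7.5-E10.5 and D23-D29 samples name another origin or stage than their tables, so sets are called here by table and cell name.

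Because no animal or culture is named, each named set of cells is 1 sample. No difference was tested, each SD is the spread between cells of 1 set, and the 95% intervals on shares are Clopper-Pearson (exact) and reflect counting error alone. The 8 repeated cells (2 of CM that recur in D29, and 6 of E10.5 that recur in the 72-cell table) carry identical values in all assays, and they count once among what are called the distinct cells. Between 7 and 34 assays were detected per cell. Among the reference types the troponin assay Tnnt2-1 was detected in 5 of 5 CM cells and in 1 SMC cell (7.41 cycles), and VE-cadherin (Cdh5) in 5 of 5 EDC cells and in 0 cells of the other types. The smooth muscle assay Cnn1 was detected in 5 of 5 SMC and 3 of 5 CPC cells. Pou5f1, a pluripotency factor, was detected in all 30 cells, at 7.96 to 9.66 in ES and at 7.61 or less elsewhere. Pdgfra, listed for mesoderm and fibroblasts, was detected in 5 of 5 CPC but 0 of 5 FB cells. A value of 0 does not separate absent Kit from Kit below the detection limit.

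Both assays gave strong signal in the positive control and none in the negative ones. Kit-1 read 12.99 cycles and Kit-2 15.26 in the positive control of 3 tables (reference, D5-D8, E7.5-E10.5), and in that of the D23-D29 table they read 14.29 and 14.77. In the atrial and ventricular tables it read 15.26 for Kit-1 and 13.03 for Kit-2, because 40 of its values stand 1 row lower there than elsewhere. The cells of those tables did not follow the shift. For the 9 genes with 2 assays, the mean gap within a cell was 1.30 cycles (atrial) and 1.25 (ventricular) under the row names as deposited, against 6.65 and 5.21 after moving them by 1 row. Names were therefore kept. Were the names moved, the row read as Kit-1 would have signal in 14 of 15 atrial and 9 of 15 ventricular cells. The low counts of Kit in the heart tables, below, therefore rest on this choice.

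The first result is that the 2 Kit assays seldom detected Kit in the same cell. Of the distinct cells, 93 had signal on either assay (48.4%, 95% interval 41.2 to 55.7). Kit-1 was detected in 54 cells (28.1%) and Kit-2 in 57 (29.7%), but both only in 18 (9.38%, interval 5.65 to 14.4). In 36 cells Kit-1 stood alone, in 39 Kit-2 stood alone, and 99 cells had neither. Kit-2 was detected in 33.3% of the cells with Kit-1 and in 28.3% of the cells without it, nearly the same share. As a description over the distinct cells, which share sets and tables, the phi coefficient of joint detection was 0.050 and Spearman's rho of the levels 0.054.

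Apart from Isl1, the other genes read with a pair of assays differed from Kit in this, but they were also read at higher levels. Both assays were positive in 96.4% of the cells with either for Myh6 (alpha myosin heavy chain), 95.5% for Tnnt2 (cardiac troponin T), 94.9% for the cardiac factor Nkx2.5 and 94.4% for Tnni3 (cardiac troponin I). The share was 79.9% for Mef2C, 77.8% for Myh7 (beta myosin heavy chain) and 68.3% for Gata4. Kit, at 19.4% of 93 cells, ranked second from the bottom, above Isl1 at 14.3% of 21 cells. The 2 low pairs were of different kinds. For Isl1, a progenitor transcription factor, 1 assay was the weaker: Isl1-1 was detected in 3 cells and each of them also had Isl1-2. For Kit the misses ran both ways, with 36 cells on one side and 39 on the other.

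**Figure D1:**
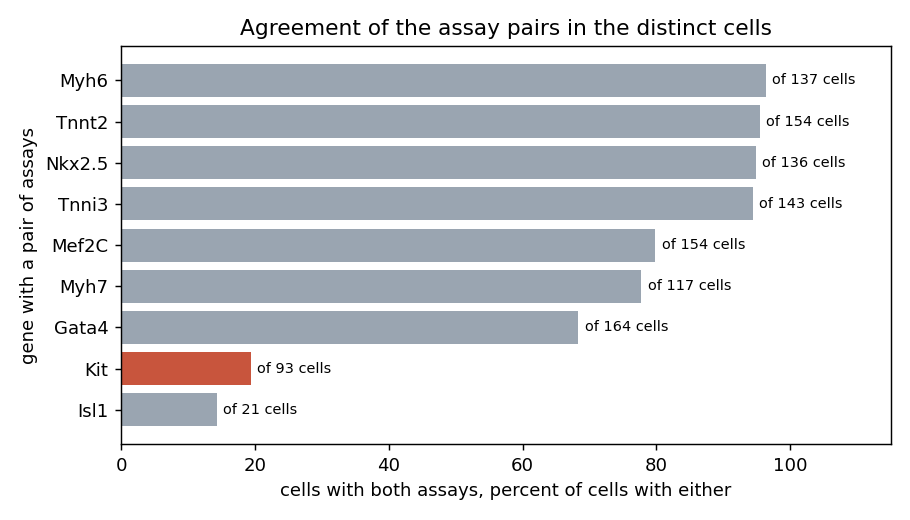
Bars give, for each of the 9 genes with 2 assays, the percent of cells with signal on either assay that had signal on both, over the distinct cells, with the number of cells having either beside each bar. Kit (red) stands at 19.4% of 93 cells, below 7 genes and above Isl1.

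Misses were not confined to low values. Kit-1 cells without Kit-2 had a median Kit-1 of 4.12 cycles, against 3.75 in cells with both. Kit-2 cells without Kit-1 had a median Kit-2 of 3.17, against 3.52 in cells with both. In the 9 cells where Kit-1 reached 6 cycles or more, Kit-2 was detected in 0. Those were 2 ES cells, 3 E7.5 cells, 2 E8.5 cells and 2 cells of the 72-cell E10.5 table. The highest Kit-1 value anywhere, 7.76 cycles in cell 26 of the 72-cell table, came with Kit-2 at 0. Kit-2 never reached 6 cycles, and its highest value without Kit-1 was 4.63. In the 18 cells with both, Kit-1 minus Kit-2 averaged 0.56 ± 1.46 cycles (SD between cells) and ran from -2.32 to 3.70. Where on the transcript each assay lies is not given in the sources used here, and the part of assay position, isoform or amplification in the disagreement was not tested.

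**Figure D2:**
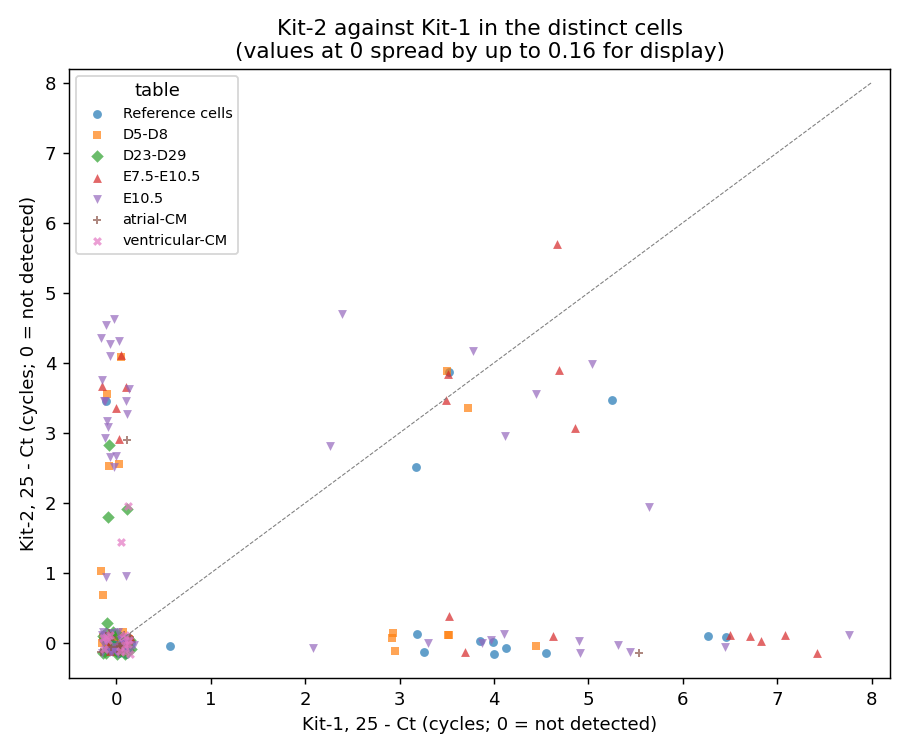
Each point is 1 distinct cell, with Kit-1 on the horizontal and Kit-2 on the vertical axis (25 minus Ct, cycles), coloured by table; values at 0 are spread slightly and the dashed line marks equal values. Most detecting cells lie on one axis or the other, and the 9 cells with Kit-1 at 6 or more all lie on the Kit-1 axis.

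Across the 21 named sets, the Kit-1 mean was highest in ES (4.94 ± 1.30 cycles, SD between cells), E7.5 (4.89 ± 2.60), CPC (3.30 ± 2.02) and E8.5 (3.03 ± 3.57). It stood at 1.95 ± 2.17 or less in the other 17 sets and at 0 in every cell of 6 sets. The Kit-2 mean was highest in E9.5 (3.82 ± 0.97), followed by CPC (1.97 ± 1.87) and the 72-cell E10.5 table (1.36 ± 1.76), and it was also 0 throughout 6 sets. Only ES had Kit-1 in all of its cells, and only E9.5 had Kit-2 in all of its cells. The sets CM and adult atrial had neither assay in any cell. Along the order of the means, 0 pairs of neighbouring sets differed by more than the larger of their SDs, for either assay, so the order is read only between sets far apart. Over the 21 set means the Spearman correlation between Kit-1 and Kit-2 was 0.34.

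**Figure D3:**
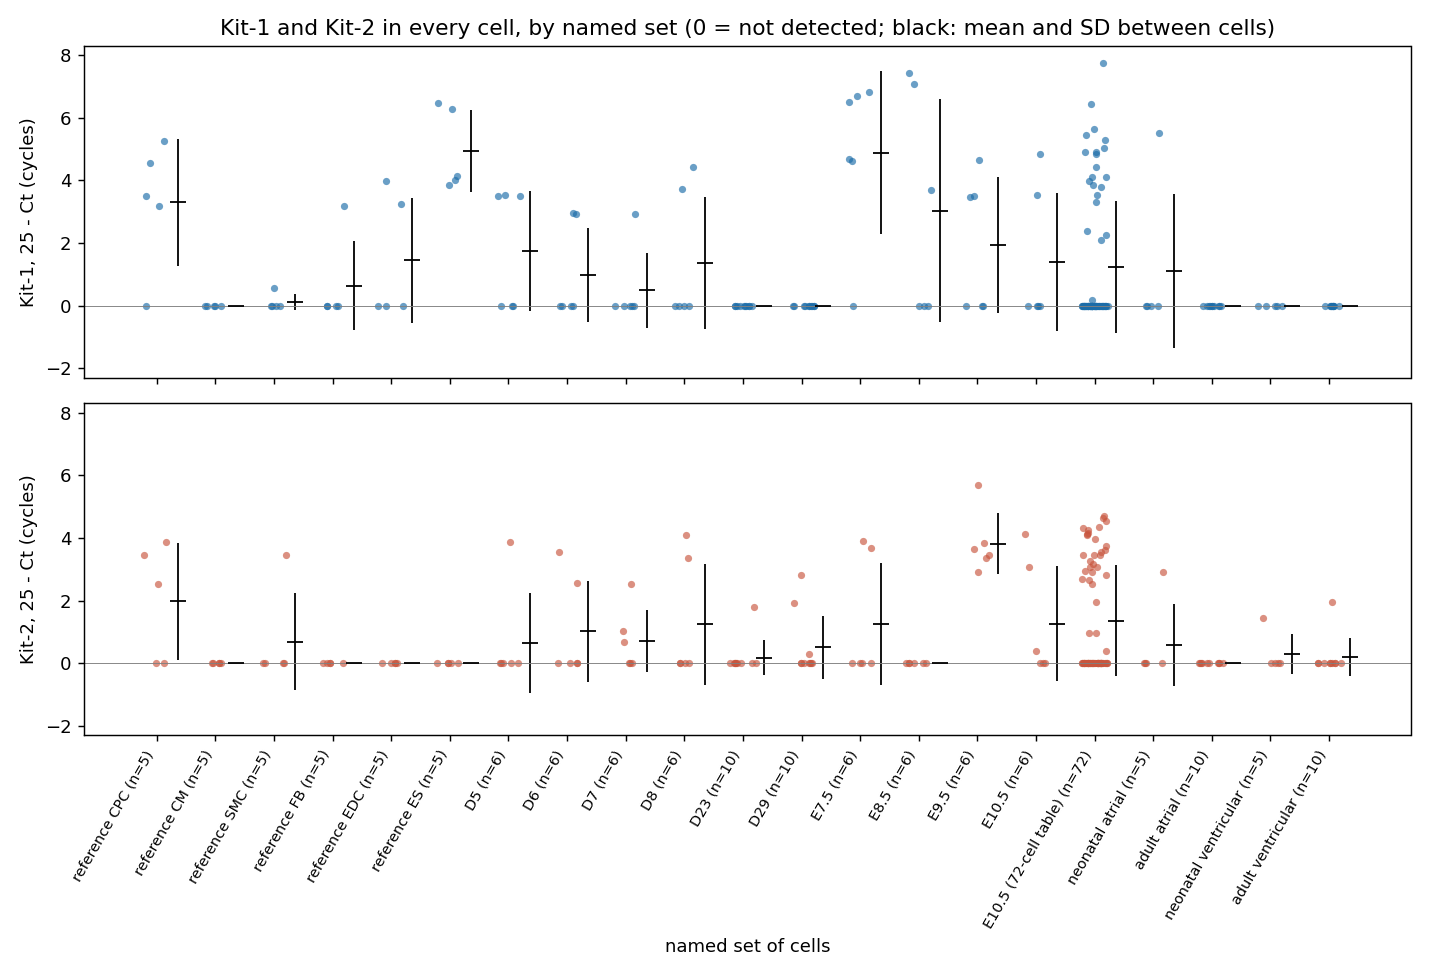
Points are single cells in the 21 named sets (n under each name), with Kit-1 above and Kit-2 below as 25 minus Ct in cycles, 0 meaning not detected; black marks give the mean and the SD between cells. Kit-1 is high in ES, E7.5 and 2 of 6 E8.5 cells, and at 0 in all adult and D23-D29 cells. Kit-2 is detected in 6 of 6 E9.5 cells, 1 of 10 D23 cells, 3 of 10 D29 cells and 1 of 20 adult cells.

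Among the reference cells, the 5 ES cells had Kit-1 at 6.27, 3.85, 4.13, 6.46 and 4.0 cycles and Kit-2 at 0 in all 5. The 5 CPC cells had Kit-1 at 0, 4.55, 5.25, 3.17 and 3.52, and Kit-2 at 0, 0, 3.47, 2.52 and 3.87. In CPC both assays were detected together in 3 of 5 cells, which no other reference type showed, with either in 4 of 5 (80%, interval 28.4 to 99.5) and neither in 1. The cell without Kit carried the mesodermal factor Hand1 at 11.76 and Pdgfra at 8.22 like the others, but no Isl1-2, which the 4 Kit cells had at 3.47 to 5.64. That contrast rests on 1 cell. Other tables did not share 1 direction. In D5-D8 Isl1-2 went with Kit on either assay (phi of joint detection 0.27), and in D23-D29 against it (phi -0.17). In the E7.5-E10.5 table Isl1-2 also went against Kit, detected in 0 of 18 cells with either Kit assay and 2 of 6 with neither. In the E10.5 table it was detected in 2 of 9 cells with both Kit assays and 1 of 30 with neither. Cells with a single Kit assay had none there (0 of 12 with Kit-1 alone, 0 of 21 with Kit-2 alone).

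Of 15 other reference cells that were not EDC, 3 had Kit on a single assay. An SMC cell had Kit-1 at 0.57, another SMC cell had Kit-2 at 3.46, and an FB cell had Kit-1 at 3.19. CM cells had none. The 5 EDC cells, which carried Cdh5 at 7.52 to 9.96, had Kit-1 at 0, 0, 0, 3.99 and 3.25 and no Kit-2. The EDC mean for Kit-1 was 1.45 ± 2.0.

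Set means were compared for 17 pairs of sets, counting a difference of at least 1 cycle. Kit-1 was higher in 1, lower in 7 and within 1 cycle in 9 of them, and Kit-2 higher in 2, lower in 4 and within 1 cycle in 11. From ES to CPC, Kit-2 was 1.97 cycles higher, with all 5 ES cells and 2 of the CPC cells entered at 0, as were 35.7% of all 42 assays by at least 1 cycle. Kit-1 was lower by 1.64 cycles in CPC (difference -1.64), together with 9.52% of the assays. From CPC to CM both Kit assays were lower, with differences of -3.30 for Kit-1 and -1.97 for Kit-2, with undetected cells in both sets entered at 0, and 40.5% of the assays were lower by at least 1 cycle.

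In the embryo series the 2 assays followed different courses. At E7.5 Kit-1 read 4.69, 6.71, 6.50, 4.63, 0 and 6.82 cycles, so 5 of 6 cells had it. Kit-2 read 3.90, 0, 0, 0, 3.67 and 0, and the cell without Kit-1 was one of the 2 with Kit-2, so either assay was detected in all 6 cells. These cells had no Tnnt2-1. In 5 of the 6, Flk-1, the VEGF receptor of early vascular mesoderm, was at 9.57 to 10.91, and 3 of them also had Cdh5.

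At E8.5 the cells fell into unlike kinds. The 2 with Cdh5 (12.12 and 11.43) had Kit-1 at 7.42 and 7.08. The other 4, which had Tnnt2-1 at 11.34 to 12.97 and no Cdh5, had Kit-1 at 0, 0, 3.70 and 0. Kit-2 was at 0 in all 6 E8.5 cells. Against E7.5, the Kit-1 mean was lower by 1.86 cycles and that of Kit-2 by 1.26 (differences -1.86 and -1.26), as were 14.3% of the assays by at least 1 cycle. Both differences were smaller than the larger SD (3.57 and 1.96). Over detecting cells alone the Kit-1 difference turned to 0.20 (higher at E8.5).

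At E9.5 Kit-2 was read in every cell, at 3.47, 5.70, 3.65, 2.92, 3.35 and 3.83 cycles, the only set where it was complete (6 of 6, interval from 54.1%). Kit-1 was at 3.49, 4.67, 0, 0, 0 and 3.52, and all 6 cells had Tnnt2-1 (12.12 to 13.89) and lacked Cdh5. Kit-2 was 3.82 cycles higher than at E8.5, more than the SD of 0.97 and a lower limit in size, while 54.8% of all assays were also at least 1 cycle higher. The Kit-1 difference was -1.09, within its SD of 3.57, alongside 16.7% of assays lower. Its sign turned to 1.02 when cells with few detected assays were left out and to 0.52 relative to Actb, the housekeeping actin assay. Actb itself was not level here, at 10.33 to 12.48 cycles in the E8.5 cells and 8.10 to 9.70 in the E9.5 cells. Its part in that turn was not tested.

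The 6 E10.5 cells of that table had Kit-1 at 0, 4.86, 0, 3.53, 0 and 0 and Kit-2 at 4.12, 3.07, 0, 0.39, 0 and 0. Kit-2 was lower than at E9.5 (difference -2.56, SD up to 1.84), as were 33.3% of the assays. Kit-1 was lower than at E7.5 (difference -3.49, SD up to 2.60), as were 21.4% of the assays. The Kit-2 mean, 1.26, was the same at E7.5 and E10.5 to 2 decimals, but in different cells: none of the E7.5 cells had Tnnt2-1 and all 6 E10.5 cells had it.

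In the D5-D8 series Kit was detected on either assay in 3, 4, 4 and 3 of 6 cells on D5, D6, D7 and D8. Kit-1 was at 3.52, 3.51 and 3.50 in 3 D5 cells, 2.95 and 2.92 in 2 D6 cells, 2.93 in 1 D7 cell, and 4.44 and 3.73 in 2 D8 cells. Kit-2 was at 3.89 in 1 D5 cell, 2.56 and 3.56 in 2 D6 cells, 1.03, 2.53 and 0.69 in 3 D7 cells, and 3.36 and 4.09 in 2 D8 cells. A D5 cell and a D8 cell had both. All 4 day-to-day and D5-to-D8 differences stayed within 1 cycle for both assays, and the sets overlapped throughout. Compared with embryo cells, the Kit-1 mean of D5 was lower than that of E7.5 (difference -3.14), with 19% of the assays lower. The Kit-2 mean of D8 was lower than that of E9.5 (difference -2.58), with 57.1% of the assays lower.

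In the later sets Kit-1 was rare and Kit-2 less so. In the D23-D29 table Kit-1 was detected in 0 of 20 cells (interval up to 16.8%) and Kit-2 in 4 (20%, interval 5.73 to 43.7), at 1.80 cycles in 1 D23 cell and 1.92, 0.29 and 2.83 in 3 D29 cells. All 4 had Tnnt2-1 at 11.19 to 12.53. In the neonatal heart 3 of 10 cells had Kit (30%, interval 6.67 to 65.2). They were an atrial cell with Kit-1 at 5.53, another atrial cell with Kit-2 at 2.90 and a ventricular cell with Kit-2 at 1.44.

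In the adult heart 1 of 20 cells had Kit (5%, interval 0.13 to 24.9), a ventricular cell with Kit-2 at 1.96. Kit-1 was at 0 in all 20. The neonatal atrial cell with Kit-1 also had Fn1 at 11.43, Vim at 13.80 and Pdgfra at 9.19 beside Tnnt2-1 at 13.81, where the other 4 neonatal atrial cells had Fn1 at 0 to 3.80. The mean of Kit-1 was 1.11 cycles higher in neonatal than in adult atrial cells (adult minus neonatal -1.11) and 1.11 higher in neonatal atrial than neonatal ventricular cells. The first stood beside 35.7% of assays lower, the second beside 35.7% higher. Both rest on that 1 cell.

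The 72 cells of the E10.5 table give the largest look at which cells carry Kit. Kit-1 was detected in 21 cells (29.2%, interval 19 to 41) and Kit-2 in 30 (41.7%, interval 30.2 to 53.9). Detected Kit-1 ran from 0.19 to 7.76 with a median of 4.12 cycles, and detected Kit-2 from 0.39 to 4.70 with a median of 3.46. There were 12 cells with Kit-1 alone, 21 with Kit-2 alone, 9 with both and 30 with neither.

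Kit-1 went with the endothelial assays. It was detected in 10 of the 12 cells with Cdh5 (83.3%, interval 51.6 to 97.9) and in 11 of the 60 cells without it (18.3%, interval 9.52 to 30.4). Of the 9 cells with 2 or 3 of the endothelial assays (Cdh5, the adhesion molecule Pecam1 and von Willebrand factor, Vwf), 8 had Kit-1, against 3 of 12 cells with 1 such assay and 10 of 51 with none. All 5 cells without Tnnt2-1 had Kit-1, but these 5 are Cdh5 cells already counted above, with Cdh5 at 10.11 to 11.20 cycles. Of the 67 cells with Tnnt2-1, 16 had Kit-1. Over the 8 cells with Cdh5 above 10 cycles, Kit-1 read 5.44, 2.27, 4.91, 4.44, 6.45, 0, 5.64 and 7.76. Over the 4 cells with Cdh5 near 5 to 6 cycles it read 2.39, 0.19, 3.78 and 0. Each of the 30 cells with neither Kit assay lacked Cdh5 and had Tnnt2-1.

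Kit-2 did not single out these cells. It was detected in 7 of the 12 cells with Cdh5 (58.3%, interval 27.7 to 84.8) and in 23 of the 60 without (38.3%, interval 26.1 to 51.8). The intervals overlap, and they reflect counting error alone. The 21 cells with Kit-2 alone all had Tnnt2-1, but only 18 had Tnni3-1 and 16 Myh6-1, while 7 had Pdgfra and 2 had Cdh5. Tnnt2-1 alone therefore does not make them myocytes. Cells 13, 18, 20 and 27 among them had Tnnt2-1 at 6.81 to 8.27, Myh6-1 at 0 and Pdgfra at 7.22 to 10.58. In this table the highest Spearman correlation of Kit-2 was with Pdgfra (0.38). Kit-2 was detected in 11 of the 17 Pdgfra cells (64.7%, interval 38.3 to 85.8) and 19 of the 55 others (34.5%, interval 22.2 to 48.6). Again the intervals overlap. Between cells with and without Kit-2, the Pdgfra shares differed by less than the 30 percentage points used to name co-detection. Kit-1 was detected in 5 of 17 Pdgfra cells and 16 of 55 others. Other tables did not all share the sign for Kit-2 and Pdgfra. The correlation was 0.48 in the reference cells, but -0.36 in E7.5-E10.5, -0.23 in D5-D8 and -0.25 in D23-D29. In E7.5-E10.5, 2 of 8 Pdgfra cells and 9 of 16 others had Kit-2.

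**Figure D4:**
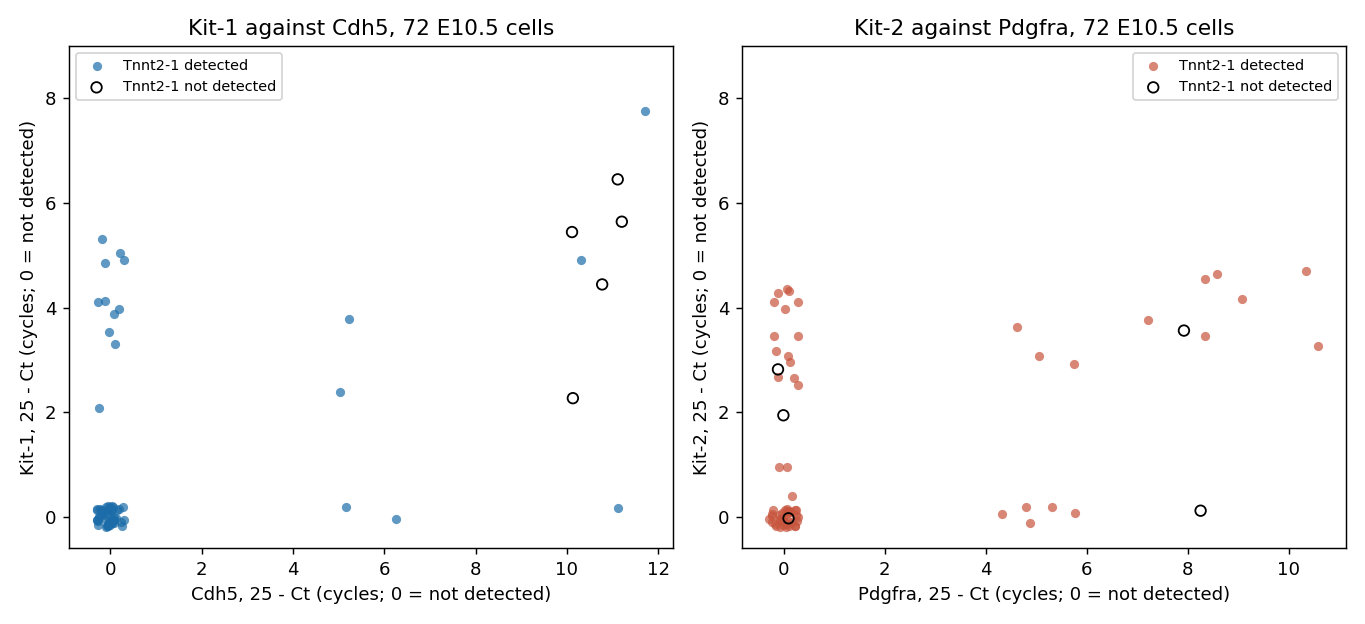
Each point is 1 of the 72 cells of the E10.5 table, with Kit-1 against Cdh5 on the left and Kit-2 against Pdgfra on the right (25 minus Ct, cycles); open circles are the 5 cells without Tnnt2-1 and values at 0 are spread slightly. Of 12 cells with Cdh5, 10 lie above 0 for Kit-1, and of 17 cells with Pdgfra, 11 lie above 0 for Kit-2.

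Other measures moved with these groups. In that table, E10.5, Actb was at 10.2 ± 0.96 cycles in the cells with Cdh5 and 7.84 ± 1.84 in those without. The Cdh5 cells detected 19.7 ± 5.52 of the 40 other assays, against 26.2 ± 3.85. Actb was at 9.01 ± 1.65 in the 21 Kit-1 cells and 7.91 ± 1.96 in the rest, and their Spearman correlations with Actb over 72 cells were 0.30 for Kit-1 and 0.28 for Kit-2. The part of RNA content in the link of Kit with these assays was not tested. Without the 6 repeated cells, 10 of 12 Cdh5 cells and 9 of 54 others had Kit-1.

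By list, the 21 Kit-1 cells of the E10.5 table stood apart most in endothelial and myocyte assays. Counting from 1 cycle, 15% of the 40 other assays had a higher mean in cells with Kit-1 than in cells without, and 40% a lower one. All 3 endothelial assays were among the higher: Cdh5 by 3.98 cycles (4.32 ± 5.0 against 0.34 ± 1.77), Pecam1 by 2.18 and Vwf by 1.96. Flk-1 was 2.33 cycles higher (3.61 ± 4.15 against 1.28 ± 2.55) and the matrix protein Fn1 1.71 higher. Of the 11 myocyte assays 10 were lower, including Tnnt2-1 (difference -3.15), Tnni3-2 (-3.22) and Actn2, alpha-actinin of the Z-disc (-2.95). For Cdh5, Pecam1, Flk-1, Tnni3-2 and Actn2 the larger SD between cells (5.0, 3.57, 4.15, 5.61 and 5.42) exceeded the difference. For Tnnt2-1, Fn1 and Vwf the SD between the 12 cells with Kit-1 alone (5.0, 2.59 and 4.07) exceeded it too. As mean list levels the differences were 2.71 cycles for endothelium and -2.25 for myocytes, and 1.12 and -1.24 without the 9 cells of few detected assays, 5 of which had Cdh5.

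The 30 Kit-2 cells of the E10.5 table were set against the other 42 in the same way. By that count, 7.5% of the 40 other assays were higher and 30% lower. The higher ones were Pdgfra by 2.07 cycles (2.86 ± 4.0 against 0.79 ± 2.03), Gata4-2 by 1.06 and Fn1 by 1.04. Of the 11 myocyte assays 9 were lower, by 1.11 to 1.79 cycles, and of the 3 endothelial assays 0 differed by 1 cycle. For each difference named here, the larger of the 2 SDs between cells exceeded it.

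In the other tables the link of Kit with cell type differed between the assays. In the E7.5-E10.5 table Kit-1 was detected in 4 of 5 cells with Cdh5 and 9 of 19 without, in 6 of 7 cells without Tnnt2-1 and 7 of 17 with it, and in 10 of 14 cells with Flk-1 and 3 of 10 without. The mean level of the myocyte list was 4.74 ± 4.95 cycles in Kit-1 cells and 7.66 ± 2.69 in the others, and that of the endothelium list 2.07 ± 3.05 against 0.72 ± 2.0. Kit-2 went the other way there. Its 11 cells had the myocyte list at 7.82 ± 3.85 against 4.61 ± 4.15, with 10 of 11 assays at least 1 cycle higher, and 8 of 8 assays of cardiac transcription factors at least 1 cycle higher. Of all 40 other assays 55% were that much higher in the Kit-2 cells, which detected 24.6 ± 6.95 of them against 21.2 ± 7.44. Myl2, the ventricular light chain, was detected in 9 of 11 Kit-2 cells and 6 of 13 others. The list differences of Kit-1 in this table changed sign without cells of few assays (myocytes to 1.41, endothelium to -0.13). That filter takes out 8 of the 24 cells, 5 of them with Cdh5. Stage runs through the table, since E9.5 holds 6 of the 11 Kit-2 cells, and the part of stage in these differences was not tested.

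In the D5-D8 table only 1 of the 24 cells had Cdh5. All 8 Kit-1 cells had Pdgfra, against 11 of 16 others, and the pluripotency factor Pou5f1 showed the same counts. Mesp1, the factor of earliest cardiac mesoderm, was detected in 4 of 8 Kit-1 cells and 1 of 16 others. Day runs through these counts, since 5 of the 8 Kit-1 cells and all 5 Mesp1 cells were of D5 or D6. Within those 2 days Mesp1 was detected in 4 of 5 cells with Kit-1 and 1 of 7 without, and Pdgfra in 5 of 5 and 6 of 7. The part of day in these differences was not tested. The level of the early mesoderm list was 4.08 ± 1.45 in Kit-1 cells and 2.80 ± 1.75 in the rest, with 3 of its 6 assays at least 1 cycle higher, beside 10% of all 40 other assays. Kit-2 cells had more of the myocyte list (5.69 ± 4.10 against 3.99 ± 3.56), and 9 of its 11 assays were at least 1 cycle higher, beside 40% of all 40 other assays. They detected 22.9 ± 7.18 of those assays against 20.4 ± 5.43 in the rest, and the part of detection in this difference was not tested.

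Side by side, the myocyte list difference for Kit-1 was -1.19 cycles in D5-D8, -2.92 in E7.5-E10.5 and -2.25 in the E10.5 table. The E7.5-E10.5 value turned to 1.41 without cells of few assays and to 3.0 where both Kit assays were required. The Kit-2 difference was 1.70 cycles in D5-D8 (-0.16 where both were required), 3.22 in E7.5-E10.5 and -1.33 in the E10.5 table. The early mesoderm list with Kit-1 differed by 1.28, 0.89 and 0.39 cycles, of which the last 2 are under 1 cycle, and in each table the larger SD between cells (1.75, 1.55 and 0.91) exceeded the difference. In the E10.5 table Flk-1 was the only one of its 6 assays to differ by 1 cycle. The endothelium list was higher by 1.35 and 2.71 cycles in the embryo tables and lower by 0.20 in D5-D8 (difference -0.20). No difference between tables was tested.

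**Figure D5:**
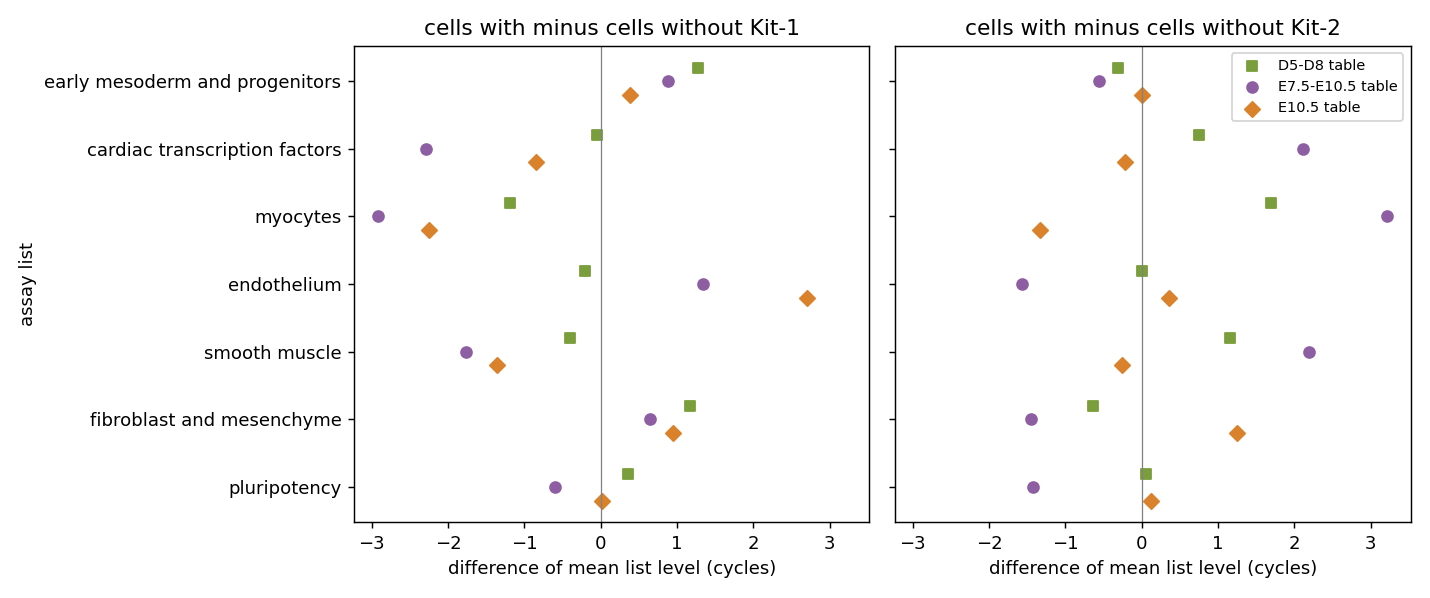
For 7 assay lists, points give the mean list level in cells with a Kit assay minus that in cells without it (cycles), for Kit-1 on the left and Kit-2 on the right, in 3 tables. With Kit-1 the myocyte list lies at -1.19, -2.92 and -2.25, of which the E7.5-E10.5 value (-2.92) turns to 1.41 without cells of few assays. With Kit-2 it is higher in 2 tables and lower in the E10.5 table.

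Over all distinct cells, Kit-1 was detected in 28 of the 150 cells with Tnnt2-1 (18.7%, interval 12.8 to 25.8) and in 26 of the 42 without it (61.9%, interval 45.6 to 76.4). Kit-2 was detected in 47 of the 150 (31.3%, interval 24 to 39) and 10 of the 42 (23.8%, interval 12.1 to 39.5). The intervals take pooled cells as independent, so they do not decide whether the assays differ. Tnnt2-1 runs with set: 0 of 5 ES, 0 of 5 CPC and 0 of 6 E7.5 cells had it, against 6 of 6 at E9.5 and 10 of 10 on D29. Cells with Cdh5 had Kit-1 in 16 of 27 (59.3%, interval 38.8 to 77.6), against 23% of the cells without Cdh5 (interval 16.8 to 30.2), and cells with Flk-1 in 30 of 63 (47.6%), against 18.6% of the cells without Flk-1. The cells without Tnnt2-1 had Actb at 10.6 ± 1.40 against 7.41 ± 2.42 in the rest and detected 12.6 ± 3.22 of the other assays against 24.1 ± 4.46. Cells of 1 set share their source here, and the part of set, Actb and depth of detection in these shares was not tested.

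The assays whose levels were most like Kit also differed between the pair. Over 72 E10.5 cells the highest Spearman correlations with Kit-1 were those of Cdh5 (0.55), Pecam1 (0.43) and Flk-1 (0.39), and the lowest that of Tbx5 (-0.31). With Kit-2 they were those of Pdgfra (0.38), the intermediate filament Vim (0.30) and Gata4-2 (0.28). In the E7.5-E10.5 table Flk-1 (0.58), Fn1 (0.52) and Cdh5 (0.49) were most like Kit-1 over 24 cells, and the smooth muscle protein Cnn1 (0.45), Gata4-1 (0.45) and Hand2 (0.45) most like Kit-2. In D5-D8 Pdgfra (0.46), Mesp1 (0.42) and Isl1-2 (0.39) were most like Kit-1, and Cnn1 (0.45), Sox2 (0.42) and Myh7-1 (0.39) most like Kit-2. With Kit-2, Pdgfra ranked among the 3 lowest in E7.5-E10.5 (-0.36) and in D5-D8 (-0.23). These rankings of each assay alone were added after the data were seen. By the rule, which ranks the mean of both assays, the highest in D5-D8 were Myh7-1 (0.41), Cnn1 (0.36) and Gata4-1 (0.34). In the E7.5-E10.5 table they were Flk-1 (0.51), Vim (0.44) and Hand1 (0.34), and over the 72 cells Cdh5 (0.50), Actb (0.44) and Vim (0.44).

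Among the 30 reference cells, Isl1-2 (0.65), Pdgfra (0.48) and Hand1 (0.46) were most like Kit-2, as CPC holds 3 of its 4 cells, and Sox2 (0.46) and Pecam1 (0.39) most like Kit-1. By the mean of both assays, Isl1-2 (0.48), Actb (0.42) and Sox2 (0.42) ranked highest there. In D23-D29 Gata4-2 (0.54) was most like Kit-2, from 4 cells. For the mean of both Kit assays over the distinct cells, Fn1 (0.50), Actb (0.49) and Vim (0.41) ranked highest and Tnni3-1 (-0.36) lowest. Over the 21 set means Fn1 (0.78) and Actb (0.74) were most like Kit-1, and Cnn1 (0.75), Sm22A (0.73) and Gata4-1 (0.68) most like Kit-2. Points share sets, tables and cell RNA content. In values this sparse the weak coefficients are no finding, and Actb itself ranks among the most similar assays.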

How the data were processed

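Single cells were sorted into strips, lysed, reverse transcribed and pre-amplified with TaqMan assays, and read on 48 by 48 Fluidigm chips, per the labels' protocols. The authors deposited Ct values; threshold, filter, cycle number, assay sequences and reference-gene correction were not given in the sources used here. Absence of signal is entered as 25, as the values show. Expression was computed as 25 minus Ct per cell and averaged over each named set, undetected values counting as 0. No test was made, because 1 set is 1 sample. A difference is counted from 1 cycle.

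Likeness is the Spearman correlation over assays detected in at least 10% of cells, in tables of at least 20 cells, with the 3 highest and 3 lowest assays ranked (5 over set means). Co-detection is named from a gap of 30 percentage points. The rule ranks the mean of both Kit assays; ranking each assay alone was added after the data were seen. The members, lists and rules were chosen with earlier results of these data known. The lists hold 6 early mesoderm, 8 transcription factor, 11 myocyte, 3 endothelial, 3 smooth muscle, 3 fibroblast and 2 pluripotency assays. Alternatives were a limit at Ct 23, both assays for either, medians, detecting cells only, centring on Actb or the median detected assay, Pearson or phi for Spearman, repeats kept, and leaving out poor cells (Actb undetected, or over 3 median absolute deviations fewer detected assays than the median cell of the table; 18 cells). The functions were tested on simulated data. Python 3.11.15, numpy 2.4.6, pandas 2.3.3 and scipy 1.17.1 were used.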

Additional observations from a re-analysis of the deposited data

Results flagged for a closer look

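In 40 groups (an assay in a set of 5 to 10 cells), the highest or lowest cell stood far from the next in 12. The chance rate of about 1 in 20 groups does not hold for values piled at 0, so the 12 are not read against it. A group at 0 throughout cannot be flagged, and a lone detecting cell always is. Of the 12, 10 are such a lone detecting cell among cells at 0, which the sparse detection of Kit gives readily. For Kit-1 these were a reference SMC cell at 0.57 cycles, an FB cell at 3.19, a D7 cell at 2.93 and a neonatal atrial cell at 5.53. For Kit-2 they were a reference SMC cell at 3.46, a D5 cell at 3.89, a D23 cell at 1.80, a neonatal atrial cell at 2.90, a neonatal ventricular cell at 1.44 and an adult ventricular cell at 1.96. The other 2 were the E7.5 cell with Kit-1 at 0, where the next lowest was 4.63, and the E9.5 cell with Kit-2 at 5.70, where the next highest was 3.83.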

How the results depend on the processing

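Requiring both assays in place of either took the share of distinct cells with Kit from 48.4% to 9.38%. Kit-1 in E8.5 minus E7.5 turned from -1.86 to 0.20 over detecting cells only, and in E9.5 minus E8.5 from -1.09 to 1.02 without poor cells and 0.52 centred on Actb. Centring on Actb moved Kit-2 to 5.95 in E9.5 minus E8.5 and to 2.66 in E10.5 minus E7.5. Actb was lower in the later set of both pairs. It ran from 10.33 to 12.48 cycles at E8.5 and from 8.10 to 9.70 at E9.5. At E7.5 it ran from 10.38 to 12.29, and in the 6 E10.5 cells of that table from 4.98 to 8.08. For Kit-1 among E7.5-E10.5 cells the myocyte list difference turned to 3.0 with both assays required and 1.41 without poor cells, and that of the endothelium list to -1.94 and -0.13. For Kit-2 in D5-D8 the myocyte list difference turned to -0.16 with both assays required. The cause of these changes was not tested, except that leaving out poor cells took 8 of 24 cells, 5 with Cdh5, from the E7.5-E10.5 table. A milder form of that filter, with the deviation scaled to a normal SD and added after the data were seen, took out 2 cells there and turned the sign of no difference of at least 1 cycle. In the 72-cell table the myocyte and endothelium list differences kept their signs under each alternative run. Of the values under an alternative, 535 stayed within the spread or interval of the main one, 31 moved beyond it and 8 changed sign. No paired analysis was possible because cell numbers only name cells and no test was made. Precision is limited by 5 to 72 cells per set and by the detection limit.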
